A study of Mus musculus with 4 samples.

Results

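The genes described here are 6 subunits of the NADPH oxidase family, Cybb, Cyba, Ncf1, Ncf4, Nox4 and Rac2. They were chosen by gene symbol from the deposited tables, where all 6 were listed in every library, among 17550 genes listed in at least 1 library. Earlier results of these data were known at that choice. Counts and medians set beside all genes therefore describe these 6 genes and do not test enrichment. The series sequenced total RNA of left ventricle from 8-week-old C57BL/6 mice, taken 3 days after myocardial infarction was induced in all of them. The 4 groups were infarcted ventricle of mice labelled Neil3-/-, infarcted ventricle of wild-type (WT) mice, non-infarcted ventricle of mice labelled Neil3-/-, and non-infarcted ventricle of WT mice. Every group was represented by 1 library, and no heart without infarction was analysed here. Whether a library came from 1 mouse or a pool is not stated in the labels.

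NADPH oxidases pass electrons from NADPH across a membrane to oxygen and so make superoxide or hydrogen peroxide on purpose. In phagocytes the catalytic subunit coded by Cybb sits in the membrane with the stabilising partner coded by Cyba. It is silent until cytosolic subunits, those coded by Ncf1 and Ncf4 among them, and the small GTPase coded by Rac2 join it. In humans, loss of the CYBB, CYBA, NCF1 or NCF4 product causes chronic granulomatous disease, in which phagocytes fail to kill some microbes. Nox4 codes for another catalytic subunit, which also pairs with the Cyba product but is active without the cytosolic subunits, and which is made by cells of the heart and vessel wall. After an infarction, neutrophils and then monocytes and macrophages, which carry the phagocyte oxidase, enter the damaged muscle.

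The libraries held 18.2, 17.3, 14.3 and 14.9 M uniquely assigned reads (M, megareads), in the order of the groups above. Cardiomyocyte markers were abundant in all of them, and the summed level of 10 such markers was 6438, 10003, 22908 and 23994 RPKM (reads scaled by gene length and library size) in the same order. Neil3, the gene named in the genotype, had more and not fewer reads in the libraries labelled Neil3-/-, with 763 against 155 in WT in infarcted tissue and 391 against 62 in WT in non-infarcted tissue. Reads covered 71.5% of the Neil3 gene model in the infarcted library labelled Neil3-/- and 73.4% in infarcted WT tissue. In non-infarcted tissue these values were 62.9% and 63.4%. Which part of the gene lacked reads was not tested. The labels do not say which part of the gene was deleted, so the count over the whole gene does not check the genotype. With 1 library per group, no difference has a replicate check and no p-value was computed. The 95% intervals given in parentheses cover counting error only.

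RefSeq promoter windows of mouse build GRCm38.p6 matched 4 of the 6 genes by gene identifier. All 4 are shown, whatever the infarct ratio of the gene, and Ncf4 and Rac2 had no window. The 250 bases before the annotated start are printed from 5′ to 3′ on the strand of the gene. Capitals mark matches on either strand to a repeat of the kind bound by interferon regulatory factors (GAAA, any 2 bases, GAAA), to the GC box GGGCGG, and to CCAAT. These motifs were chosen after the sequences had been seen. The windows lie at chrX:9469325-9469574 for Cybb, chr5:134229626-134229875 for Ncf1 and chr8:122432941-122433190 for Cyba, all on the minus strand, and at chr7:87246399-87246648 on the plus strand for Nox4.
Cybb: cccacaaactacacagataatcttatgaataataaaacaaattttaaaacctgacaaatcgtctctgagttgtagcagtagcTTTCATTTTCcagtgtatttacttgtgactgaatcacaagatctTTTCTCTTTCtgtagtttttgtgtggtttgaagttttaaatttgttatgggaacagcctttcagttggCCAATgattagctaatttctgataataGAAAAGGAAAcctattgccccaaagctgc
Ncf1: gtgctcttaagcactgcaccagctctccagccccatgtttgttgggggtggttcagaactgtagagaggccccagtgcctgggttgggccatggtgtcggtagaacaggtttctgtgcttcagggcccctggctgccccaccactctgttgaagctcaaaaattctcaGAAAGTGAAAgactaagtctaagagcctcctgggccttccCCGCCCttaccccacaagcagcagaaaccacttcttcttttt
Cyba: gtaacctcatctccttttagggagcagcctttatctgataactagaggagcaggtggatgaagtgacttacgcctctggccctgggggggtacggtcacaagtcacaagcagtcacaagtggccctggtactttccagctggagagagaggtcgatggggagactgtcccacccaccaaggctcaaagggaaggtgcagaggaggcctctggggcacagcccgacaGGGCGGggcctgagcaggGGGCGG
Nox4: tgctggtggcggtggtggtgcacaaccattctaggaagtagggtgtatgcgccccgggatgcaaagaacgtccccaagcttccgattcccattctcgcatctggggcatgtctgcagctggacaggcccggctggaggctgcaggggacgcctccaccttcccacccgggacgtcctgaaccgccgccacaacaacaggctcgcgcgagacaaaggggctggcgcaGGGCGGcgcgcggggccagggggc

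The Cybb window held 3 matches to the GAAA repeat and the Ncf1 window 1, where 2.98% of 32851 RefSeq windows of the same length held any. GGGCGG matched 2 times in the Cyba window and 1 time each in those of Ncf1 and Nox4, and 32.7% of all windows held it. CCAAT matched 1 time, in the Cybb window, against 33.8% of all windows. No matches overlapped each other. A match to letters is a description of the sequence and does not show that a factor binds there.

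The first comparison asked how infarcted ventricle differed from non-infarcted ventricle. In both genotypes all 6 genes had higher levels in infarcted tissue. Counted at 2-fold or more on the log2(RPKM + 1) scale, 4 of the 6, Cyba, Ncf1, Ncf4 and Rac2, were higher in the libraries labelled Neil3-/- and the same 4 in WT, and none was lower. Over all genes compared, those with at least 1 RPKM in a library of the pair, 8.2% were counted as higher and 6.07% as lower in the libraries labelled Neil3-/-, and 6.21% and 3.6% in WT. The median log2 ratio of the 6 genes was 1.27 in the libraries labelled Neil3-/- and 1.37 in WT, against 0.24 and 0.21 for all genes compared. Median-ratio scaling lowered the median of all genes by 0.23 and 0.20, and TMM scaling by 0.21 and 0.20. Under these scalings genes counted as higher were 31.9% and 34.1% of all counted genes in the libraries labelled Neil3-/- in place of 57.5%, and 36.4% and 37.2% in WT in place of 63.3%. The same 4 subunits were counted under both, and all 6 genes kept ratios above 0. Of all genes compared, 4.11% in the libraries labelled Neil3-/- and 3.57% in WT were counted as higher under median-ratio scaling. Under TMM scaling these shares were 4.375% and 3.64%. In whole tissue, more cells of a type and more RNA per cell cannot be told apart.

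**Figure D1:**
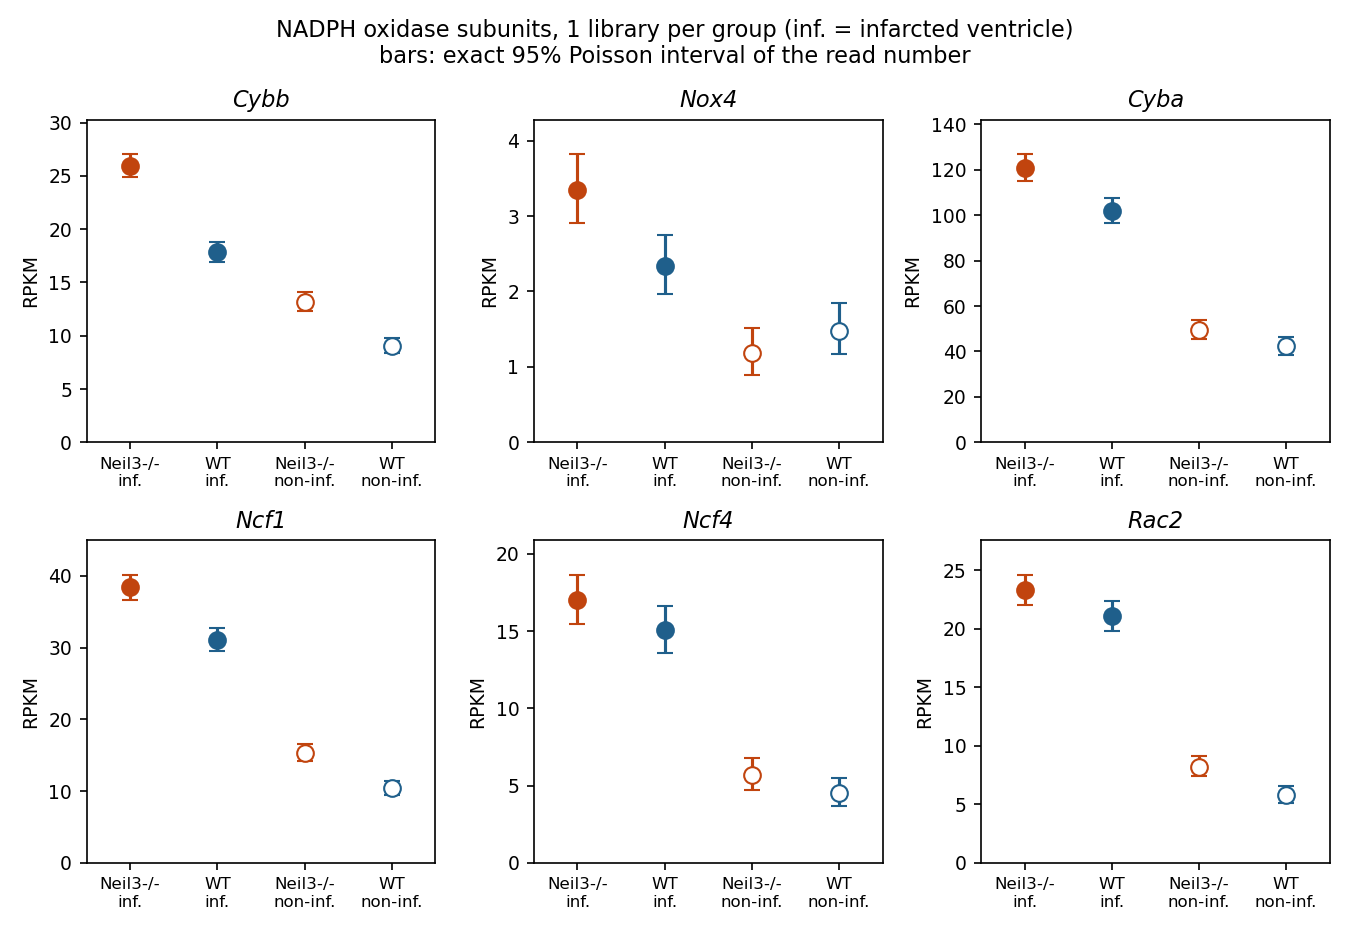
Level in RPKM of each subunit in the 4 libraries (filled points, infarcted; open points, non-infarcted; bars, exact 95% Poisson interval of the read number). The infarcted libraries are the upper pair in every panel, and in the Nox4 panel alone the non-infarcted library labelled Neil3-/- (1.18 RPKM) lies below WT (1.48 RPKM).

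Cybb, the catalytic subunit of the phagocyte oxidase, reached 25.9 RPKM in the infarcted library labelled Neil3-/-, compared with 13.2 RPKM in its non-infarcted counterpart. In WT it was at 17.8 RPKM in infarcted and 9.04 RPKM in non-infarcted tissue. The ratios were 1.96 (1.82 to 2.12) in the libraries labelled Neil3-/- and 1.97 (1.79 to 2.17) in WT, nearly the same size in both and just under the 2-fold line, which both intervals include. A lncRNA gene overlaps Cybb in the RefSeq annotation, as another does Ncf1, and reads from them could not be told apart without strand. Of the 5 phagocyte subunits it had the smallest infarct ratio in each genotype.

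Cyba, whose product stabilises both Cybb and Nox4 proteins, was the most abundant subunit per length in all 4 libraries. Its level was 121 RPKM in infarcted and 49.6 RPKM in non-infarcted tissue of mice labelled Neil3-/-. In WT these levels were 102 RPKM in infarcted and 42.4 RPKM in non-infarcted tissue. The infarct ratio was 2.44 (2.21 to 2.69) in the libraries labelled Neil3-/- and 2.40 (2.16 to 2.67) in WT, again alike in size. The RPKM ratio of Cybb over Cyba was lower in infarcted tissue, at 0.2145 (0.201 to 0.229) against 0.266 (0.239 to 0.297) in non-infarcted tissue in the libraries labelled Neil3-/-. In WT it was 0.175 (0.1625 to 0.189) in infarcted and 0.2135 (0.189 to 0.241) in non-infarcted tissue.

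The cytosolic subunits had larger infarct ratios than the membrane pair in WT. Ncf1, the organiser that carries the complex to the membrane once phosphorylated, reached 38.4 RPKM in infarcted and 15.3 RPKM in non-infarcted tissue of mice labelled Neil3-/-, a ratio of 2.51 (2.28 to 2.75). In WT it was at 31.1 RPKM in infarcted and 10.4 RPKM in non-infarcted tissue, a ratio of 2.99 (2.68 to 3.34). Ncf4, which binds a membrane phosphoinositide of phagosomes, was at 17.0 RPKM in infarcted and 5.69 RPKM in non-infarcted tissue of mice labelled Neil3-/-. In WT it was at 15.05 RPKM in infarcted and 4.50 RPKM in non-infarcted tissue. Its ratios, 2.99 (2.44 to 3.69) in the libraries labelled Neil3-/- and 3.35 (2.67 to 4.22) in WT, rested on 98 to 453 reads per library and have the widest intervals of the phagocyte subunits. Per unit of Cybb RPKM, there was more Ncf1 in infarcted tissue, at 1.48 (1.39 to 1.57) against 1.16 (1.04 to 1.29) in the libraries labelled Neil3-/- and 1.74 (1.62 to 1.875) against 1.15 (1.01 to 1.30) in WT.

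Rac2, the GTPase of the oxidase in blood cells, had the largest infarct ratio of the 6 genes in WT, though its interval overlapped those of Ncf4 and Ncf1. It was at 23.3 RPKM in infarcted and 8.21 RPKM in non-infarcted tissue of mice labelled Neil3-/-, and at 21.05 RPKM in infarcted and 5.82 RPKM in non-infarcted WT tissue. The ratios were 2.84 (2.52 to 3.20) in the libraries labelled Neil3-/- and 3.62 (3.16 to 4.16) in WT, and the WT log2 ratio lay above that of 99.2% of the genes compared. Reads covered 92.9% of the Rac2 gene model in infarcted and 70.8% in non-infarcted tissue of mice labelled Neil3-/-, and 94.6% and 62.65% in WT. Its paralogue Rac1, made by nearly all cells, was far more abundant, at 131 to 196 RPKM, and its infarct ratios were 1.49 (1.44 to 1.55) and 1.465 (1.41 to 1.52). Rac2 made up 10.6% of the summed RPKM of Rac1 and Rac2 in infarcted against 5.86% in non-infarcted tissue of mice labelled Neil3-/-, and 9.86% against 4.24% in WT. How reads shared by these paralogues were treated is not given beyond the header's word for unique reads, and the part of shared reads in these shares was not tested.

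Nox4, the subunit that needs no cytosolic partners, was the least abundant of the 6 in every library. Its level was 3.34 RPKM in infarcted and 1.18 RPKM in non-infarcted tissue of mice labelled Neil3-/-, from 213 and 59 reads. In WT it was at 2.33 RPKM in infarcted and 1.48 RPKM in non-infarcted tissue, from 141 and 77 reads. The RPKM ratio was 2.83 (2.12 to 3.85) in the libraries labelled Neil3-/- and 1.58 (1.19 to 2.11) in WT. On the log2(RPKM + 1) scale, which compresses low levels, these ratios were 0.99 and 0.43, so Nox4 fell just short of the 2-fold count in the libraries labelled Neil3-/-. With 0.1 RPKM added in place of 1 RPKM the value was 1.43 and Nox4 was counted there. Reads covered 90.35% of the Nox4 gene model in infarcted and 54.75% in non-infarcted tissue of mice labelled Neil3-/-, and 76.2% and 65.0% in WT.

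**Figure D2:**
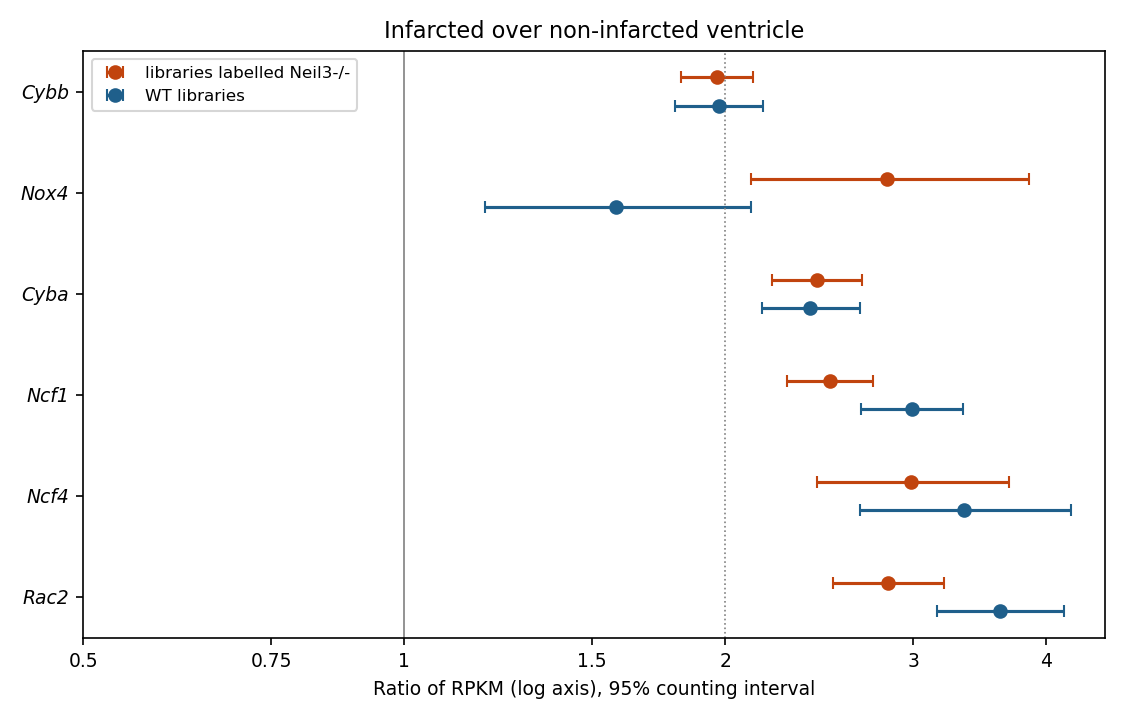
Ratio of RPKM, infarcted over non-infarcted ventricle, for the 6 subunits on a log axis, with 95% counting intervals (dotted line, 2-fold). Cybb lies at 1.96 and 1.97, Nox4 at 2.83 in the libraries labelled Neil3-/- and 1.58 in WT, and Rac2 at 2.84 and 3.62.

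**Figure D3:**
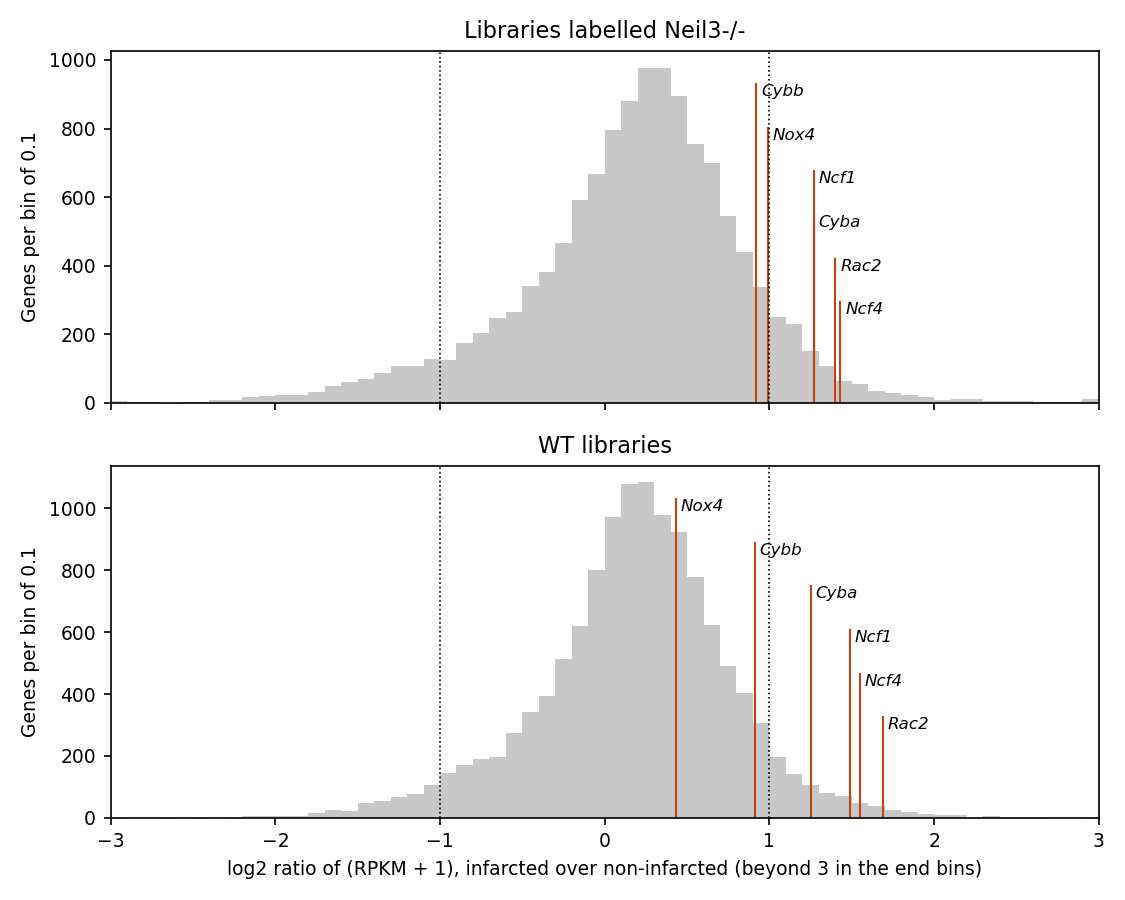
Distribution over all genes compared of the log2 ratio of (RPKM + 1), infarcted over non-infarcted, with the 6 subunits as vertical lines (dotted lines, 2-fold). Cyba, Ncf1, Ncf4 and Rac2 lie beyond 1 in both panels, Cybb lies at 0.92 and 0.91, and Nox4 at 0.99 and 0.43.

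The order of levels was Cyba, Ncf1, Cybb, Rac2, Ncf4 and Nox4, from high to low, in every library but that of infarcted WT tissue, where Rac2 stood above Cybb. Neighbours in this order had counting intervals that did not overlap in 3 libraries. In non-infarcted WT tissue the intervals of Ncf1 and Cybb overlapped, as did those of Rac2 and Ncf4. Cyba stood above 96.8% of the listed genes in the infarcted library labelled Neil3-/- and above 90.2% in non-infarcted WT tissue, while Nox4 stood above 38.3% and 30.2%.

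Markers of phagocytes moved with these genes. The summed level of 11 monocyte and macrophage markers was 1578 RPKM in infarcted and 704 RPKM in non-infarcted tissue of mice labelled Neil3-/-, 2.24-fold higher, and 1138 against 429 RPKM in WT, 2.65-fold higher. In both genotypes all 11 had higher levels in infarcted tissue, 6 of them at 2-fold or more in the libraries labelled Neil3-/- and 7 in WT. The summed level of 10 neutrophil markers was 301 RPKM in infarcted and 59.5 RPKM in non-infarcted tissue of mice labelled Neil3-/-, and 292 and 89.1 RPKM in the WT libraries of these regions. Of these markers 7 of 8 compared were at 2-fold or more in each genotype. Their sum was 5.07-fold higher in infarcted tissue in the libraries labelled Neil3-/- and 3.28-fold higher in WT. With Lcn2, which other cells also make, left out after the data had been seen, these values were 10.05-fold and 7.45-fold. The neutrophil marker Ly6g was not listed in any library and 1 more was at 0 in each non-infarcted library, while S100a8 and S100a9 had reads in all 4. Cardiomyocyte markers ran the other way, 3.56-fold lower in infarcted tissue in the libraries labelled Neil3-/- and 2.40-fold lower in WT. The summed level of 8 fibroblast markers was 1.66-fold higher in infarcted tissue in the libraries labelled Neil3-/- and 1.39-fold higher in WT, but 7 of the 8 were above 0 on the log2 scale in the libraries labelled Neil3-/- and 5 in WT. The 5 smooth muscle markers were 1.80-fold and 1.46-fold higher by their sum, yet 3 were above 0 and 2, Myh11 and Rgs5, below it in each genotype, and Rgs5 was counted as lower in WT. The 8 endothelial markers were 1.55-fold and 1.59-fold higher by their sum, with 6 above 0 in the libraries labelled Neil3-/- and 7 in WT. The 7 lymphocyte markers summed to at most 6.48 RPKM. The part of cell numbers in the subunits' ratios was not tested.

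The second comparison asked how the libraries labelled Neil3-/- differed from WT within each region. None of the 6 genes was counted at 2-fold in either region, where 0.249% of genes were counted as higher and 0.241% as lower in infarcted tissue, and 0.254% and 0.188% in non-infarcted tissue. All 6 were higher in the infarcted library labelled Neil3-/-, with a median log2 ratio of 0.27 against 0.02 for all genes compared. In non-infarcted tissue 5 were higher and Nox4 lower, with a median of 0.36 against 0.01.

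Cybb and Nox4 had the largest ratios of the 6 in infarcted tissue, and Cybb was at 25.9 RPKM in the library labelled Neil3-/- against 17.8 RPKM in WT, 1.46-fold (1.36 to 1.56). In non-infarcted tissue it was at 13.2 RPKM in the library labelled Neil3-/- against 9.04 RPKM in WT, also 1.46-fold (1.32 to 1.62). Its log2 ratios lay above those of 97.6% and 98.2% of the genes compared. Cyba was higher by less, 1.19-fold (1.11 to 1.28) in infarcted and 1.17-fold (1.04 to 1.33) in non-infarcted tissue. For both membrane subunits of the phagocyte oxidase the ratio between genotypes was nearly equal in both regions.

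The ratios of Ncf1, Ncf4 and Rac2 between genotypes were larger in non-infarcted than in infarcted tissue, though for Ncf4 within counting error. Ncf1 was 1.24-fold higher (1.15 to 1.32) in the infarcted library labelled Neil3-/- and 1.48-fold higher (1.30 to 1.68) in the non-infarcted one. For Rac2 the ratio was 1.11 (1.02 to 1.20) in infarcted and 1.41 (1.20 to 1.66) in non-infarcted tissue. Ncf4 had ratios of 1.13 (0.984 to 1.30) and 1.27 (0.961 to 1.67) in these regions, and the intervals include 1, so both lay within counting error. Variation between mice was not measured for any of these ratios. Nox4 was 1.43-fold higher (1.15 to 1.785) in the infarcted library labelled Neil3-/-, but at 0.799 of the WT level (0.559 to 1.14) in non-infarcted tissue, an interval that includes 1.

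Monocyte and macrophage markers were higher in the libraries labelled Neil3-/- as well. All 11 were above WT in both regions, and their summed level was 1.39-fold higher in infarcted and 1.64-fold higher in non-infarcted tissue. In non-infarcted tissue Lyz2 alone gave 441 of 704 RPKM in the library labelled Neil3-/- and 244 of 429 RPKM in WT. The log2 ratios of single markers ran from 0.13 to 0.58 in infarcted and from 0.04 to 0.85 in non-infarcted tissue, with medians of 0.42 and 0.43. The neutrophil markers summed to 1.03-fold of WT in infarcted and 0.668-fold in non-infarcted tissue. Without Lcn2, which other cells also make and which was left out after the data had been seen, that sum was 1.17-fold and 0.868-fold of WT. Cardiomyocyte markers were at 0.644-fold of WT in infarcted and 0.955-fold in non-infarcted tissue, and fibroblast markers were 1.54-fold and 1.30-fold higher by their sum, with 8 of 8 above WT in infarcted and 6 of 8 in non-infarcted tissue. The part of these differences in the subunits' ratios was not tested.

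**Figure D4:**
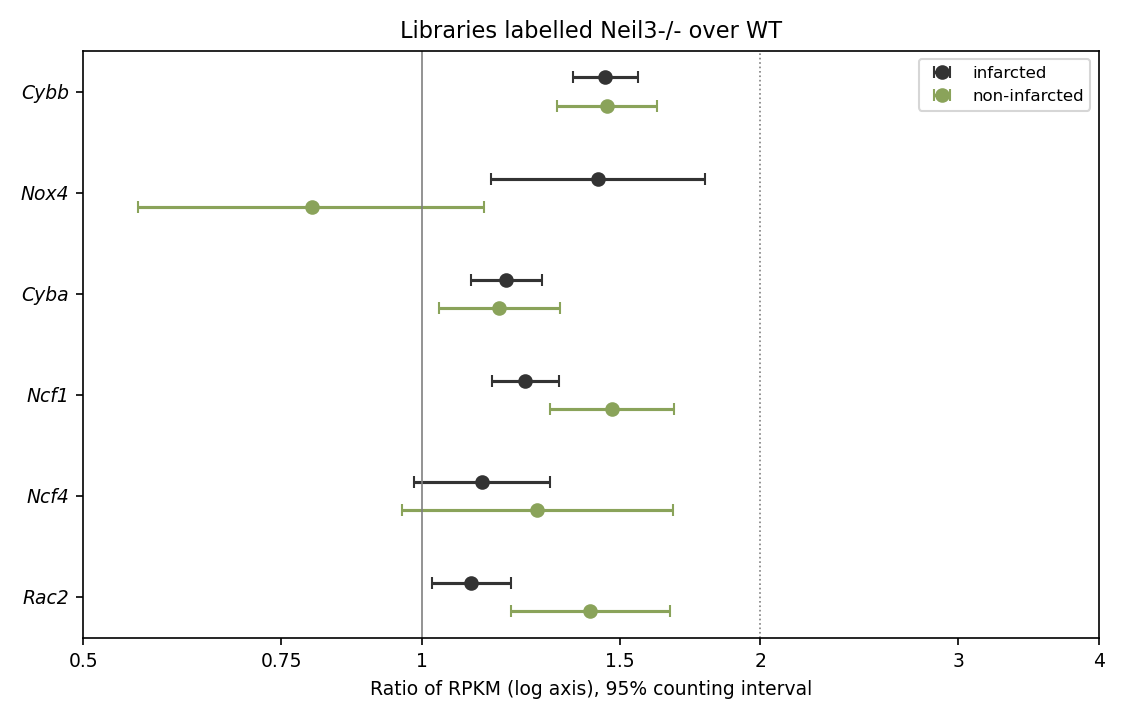
Ratio of RPKM, libraries labelled Neil3-/- over WT, for the 6 subunits on a log axis, with 95% counting intervals. Cybb lies at 1.46 in both regions, and Nox4 lies on opposite sides of 1, at 1.43 in infarcted and 0.799 in non-infarcted tissue.

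The third comparison set the infarct ratio of the libraries labelled Neil3-/- against that of WT. For each gene this quotient equals its ratio between genotypes in infarcted tissue over that in non-infarcted tissue. It therefore restates the second comparison and adds no separate evidence. None of the 6 genes differed by 2-fold, where 0.299% of all genes did so upward and 0.228% downward. For Cybb and Cyba the quotient of both infarct ratios was 0.996 (0.881 to 1.13) and 1.01 (0.877 to 1.17). Ncf1 and Rac2 had smaller infarct ratios in the libraries labelled Neil3-/-, with quotients of 0.838 (0.725 to 0.968) and 0.785 (0.654 to 0.942), and Ncf4 had 0.893 (0.654 to 1.22). On the log2(RPKM + 1) scale the differences of Ncf1 and Rac2 lay above those of 17.3% and 11.4% of the genes compared. Nox4 had the quotient farthest above 1 of the 6 genes, 1.79 (1.18 to 2.73). Its difference on the log2(RPKM + 1) scale, 0.57, lay above that of 98.7% of the genes compared.

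Other genes of the oxidase pathway were described from a list of 38 symbols, of which 35 were found and 28 reached 1 RPKM in both infarct comparisons. This list too was chosen with earlier results of these data known, so its counts do not test enrichment. Among them, in the libraries labelled Neil3-/-, 10 of the 28 were counted as higher in infarcted tissue and in WT 8, with none counted as lower, against the 8.2% and 6.21% given above for all genes. Under median-ratio scaling these counts were 3 (Vav1, Dock2 and G6pdx) and 4 (the same 3 and Rhog). Under TMM scaling they were 5, where Arhgdib and Pla2g4a joined those 3, and 4. The shares of all genes counted as higher also fell, to 4.11% and 3.57% under median-ratio scaling and to 4.375% and 3.64% under TMM scaling. None was counted between genotypes in either region.

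Of the organisers, activators and maturation factors, 1 of 4 compared was counted as higher, Sh3pxd2b, whose product is a scaffold of actin-rich invasive structures and binds oxidase subunits. Its level was 28.0 RPKM in infarcted and 11.7 RPKM in non-infarcted tissue of mice labelled Neil3-/-, and 20.9 and 9.01 RPKM in the WT libraries of these regions. The infarct ratio was 2.385 (2.24 to 2.545) in the libraries labelled Neil3-/- and 2.32 (2.155 to 2.495) in WT, and the ratio between genotypes 1.34 (1.275 to 1.41) in infarcted and 1.30 (1.20 to 1.42) in non-infarcted tissue. It was not counted under either scaling. BC017643, the older symbol of Cybc1, whose product stabilises the Cybb and Cyba proteins, had infarct ratios of 1.75 (1.52 to 2.03) in the libraries labelled Neil3-/- and 1.99 (1.71 to 2.33) in WT. Poldip2, which binds the Cyba product and raises Nox4 activity in vascular smooth muscle, ran opposite to Nox4 itself. Its level was 40.4 RPKM in infarcted and 66.35 RPKM in non-infarcted tissue of mice labelled Neil3-/-, and 46.5 and 68.75 RPKM in the WT libraries of these regions. Its infarct log2 ratios of -0.70 and -0.56 were short of 2-fold.

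The remaining catalytic genes were hardly detected. Nox1 had no read in either infarcted library and 1 read in each non-infarcted one, Nox3 was not listed in any library, and Duox1 and Duox2 had 3 to 18 reads per library, at most 0.239 RPKM. Of the organisers of non-phagocyte oxidases, Noxo1 had 15 to 25 reads and Noxa1 was not listed. Of the catalytic subunits on the list and among the 6 genes, Cybb and Nox4 alone reached 1 RPKM. Mpo, the granule enzyme that turns hydrogen peroxide into hypochlorous acid and is transcribed in neutrophil precursors, had 3 reads or fewer in every library.

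Of 12 small GTPases and their regulators, 4 were counted as higher in infarcted tissue in the libraries labelled Neil3-/- (Rhog, Vav1, Dock2 and Arhgdib) and 5 in WT, where Arhgdia joined them. The exchange factor Vav1 of blood cells had an infarct ratio of 3.08 in both genotypes, with intervals of 2.69 to 3.53 in the libraries labelled Neil3-/- and 2.68 to 3.55 in WT. Dock2, another exchange factor of blood cells, had ratios of 2.82 (2.555 to 3.13) and 2.97 (2.66 to 3.315), and Arhgdib, an inhibitor of small GTPases in blood cells, had 2.41 and 2.33. All 12 had ratios above 1 as deposited, but the log2 ratio of Vav2 in the libraries labelled Neil3-/-, 0.10, was -0.13 under median-ratio and -0.11 under TMM scaling. Hvcn1, the proton channel that balances charge during the burst, had infarct RPKM ratios of 2.17 (1.745 to 2.72) and 2.21 (1.70 to 2.90), and log2(RPKM + 1) ratios of 0.90 and 0.85 that fell short of the count. Its ratio between genotypes was 1.43 (1.20 to 1.72) in infarcted and 1.46 (1.09 to 1.97) in non-infarcted tissue, beside 1.46 for Cybb in both.

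Among enzymes that supply NADPH, both dehydrogenases of the pentose phosphate pathway were counted as higher in infarcted tissue. G6pdx had ratios of 2.815 (2.52 to 3.15) in the libraries labelled Neil3-/- and 2.50 (2.245 to 2.80) in WT, and Pgd 2.19 and 2.15. Under both scalings G6pdx was still counted in both genotypes, while Pgd, at log2 ratios of 0.85 to 0.88, was not. Me1, the cytosolic malic enzyme, was at 30.7 RPKM in infarcted and 50.8 RPKM in non-infarcted tissue of mice labelled Neil3-/-, and at 32.9 and 49.4 RPKM in WT, lower in infarcted tissue but short of 2-fold. Of the kinases and lipid enzymes that act on the oxidase, Pak1, Pik3cg and Pla2g4a were counted as higher in the libraries labelled Neil3-/-, and none in WT, where their RPKM ratios were 2.11, 2.09 and 1.99. The quotients of both infarct ratios were 1.19 (0.926 to 1.54) for Pak1, 1.335 (1.07 to 1.66) for Pik3cg and 1.30 (1.03 to 1.63) for Pla2g4a. Under median-ratio scaling none of these was counted in either genotype, with log2 ratios of 0.91, 0.96 and 0.99 in the libraries labelled Neil3-/-, and under TMM scaling Pla2g4a alone was, at 1.01.

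**Figure D5:**
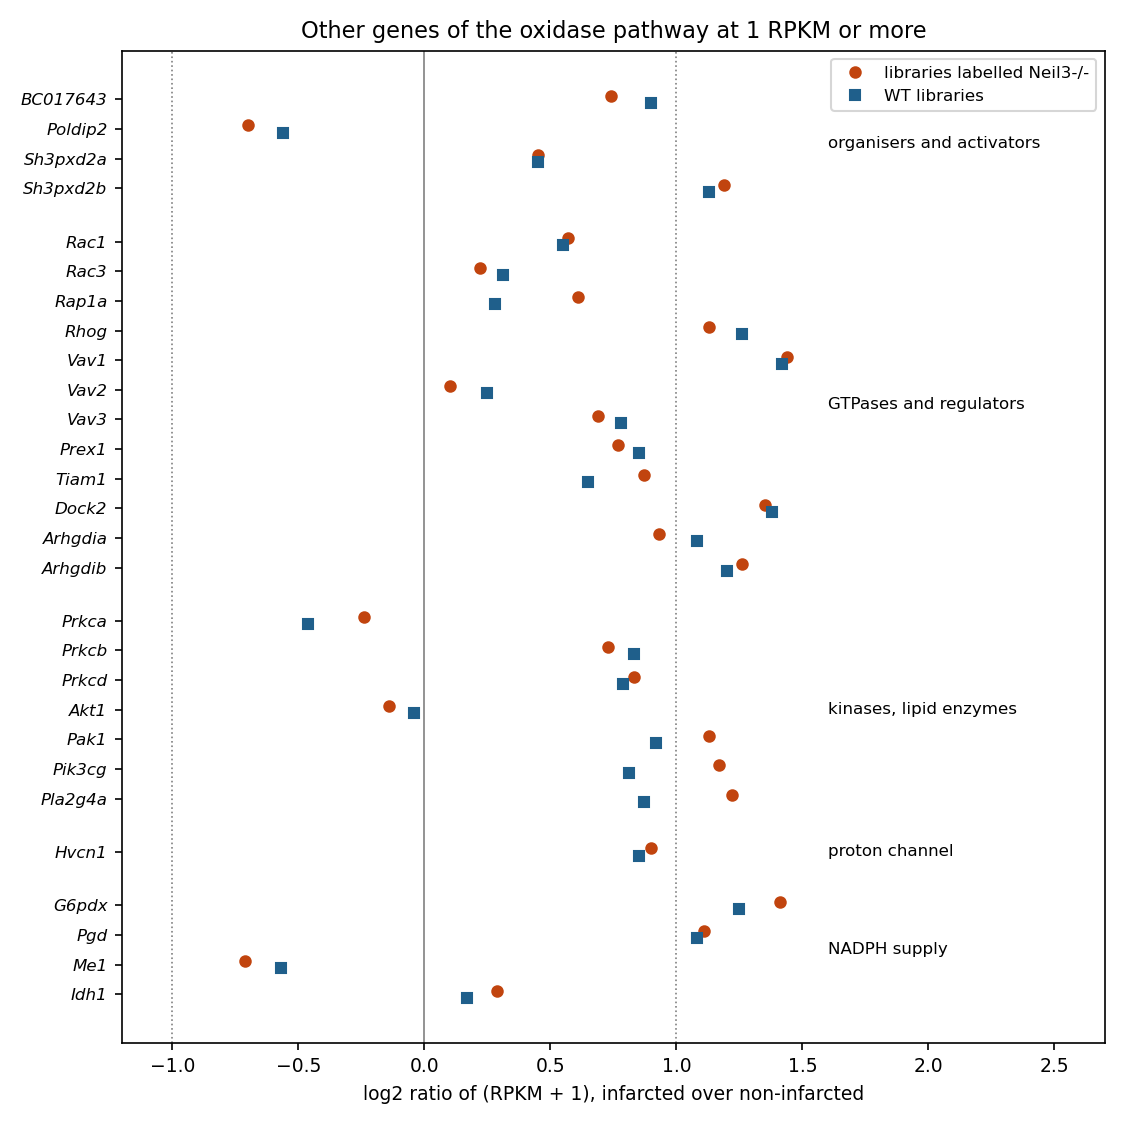
Log2 ratio of (RPKM + 1), infarcted over non-infarcted, for the 28 other genes of the pathway list at 1 RPKM or more, by role (circles, libraries labelled Neil3-/-; squares, WT; dotted lines, 2-fold). Vav1, Dock2 and G6pdx lie beyond 1 in both genotypes, and Poldip2, Me1, Prkca and Akt1 lie below 0.

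The genes whose pattern over the 4 libraries lay nearest to each subunit were taken from 9638 genes with at least 5 RPKM in a library, by the straight-line distance between their 3 log2(RPKM + 1) ratios against non-infarcted WT tissue. Cybb was followed most closely by Pla2g15, Ckap2 and Unc93b1, at distances of 0.0427 to 0.0467, and Cyba by Tkt, Aebp1 and Tmsb4x. Ncf1 lay nearest to Arrb2, Ftl1 and Selplg, Ncf4 to Ptafr, Sh3bgrl3 and Ripk3, and Rac2 to Nfam1, AF251705 and Clec7a. The nearest genes to Nox4 were Fmr1, Dnajc9 and Katnbl1. Among the subunits, Ncf1 and Rac2 were the closest pair, at 0.222, and Nox4 and Rac2 the farthest, at 1.74. With 4 libraries such a distance describes these libraries only.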

How the data were processed

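The files give, for each gene with at least 1 read, the deposited count of uniquely assigned reads, RPKM and coverage. The RPKM values, by the authors, equal that count divided by the listed gene length and the library total. Coverage in percent is taken, per the file headers, as the share of the gene model covered by reads. Genome build mm9 is named per the submitters' processing notes. Aligner, counter, annotation and strand setting were not given in the sources used here. RefSeq annotation of another build places a lncRNA gene over Cybb and another over Ncf1, whose reads could not be told apart without strand.

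Genes not listed were taken as 0 reads. The log2 ratio of (RPKM + 1) was taken for genes at 1 RPKM or more in a library compared, and 2-fold or more was counted. The added 1 RPKM understates ratios of low genes. RPKM ratios carry exact Clopper-Pearson 95% intervals, single levels exact Poisson intervals, and quotients of ratios exact conditional odds ratio intervals. Named genes were the 6 subunits, genes of the pathway list by role, 3 genes nearest in pattern to each subunit, and defining markers. Subunits and lists were chosen with earlier results of these data known. A gene of the pathway list is not reported here and was left out of its counts. Alternatives were a pseudocount of 0.1 RPKM, filters of none and 5 RPKM, median-ratio and TMM scaling (edgeR 4.0.16) and a 1.5-fold line. Counting was tested on simulated data with changes well above 2-fold and counting error only. Calls near that line and variation between mice were not tested by it. Python 3.11.15 and scipy 1.17.1 were used.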

Additional observations from a re-analysis of the deposited data

Results flagged for a closer look

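Nox4 was singled out because its difference between genotypes had opposite signs in the 2 regions. On the log2(RPKM + 1) scale it was at 0.38 in infarcted tissue, library labelled Neil3-/- over WT, and at -0.18 in non-infarcted tissue. The difference between regions was not tested, since each value compares 1 library with 1 library. It is the same contrast as the quotient of infarct ratios given above for Nox4, 1.79 (1.18 to 2.73), whose interval covers counting error only. The non-infarcted value rests on 59 reads in the library labelled Neil3-/- and 77 in WT, and its counting interval includes no difference.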

How the results depend on the processing

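No paired analysis was possible because each group has 1 library, and no replicate could be left out for the same reason. The 30 recomputed counts of subunits, those at a 1.5-fold line among them, stayed within 1.5 times those reported at 2-fold. This was a weak check, since a count of 4 among 6 genes could not rise beyond 1.5 times. Between genotypes and in the difference of infarct ratios the count was 0 under every setting. In the infarct comparison Nox4 joined the 4 counted subunits in the libraries labelled Neil3-/- with 0.1 RPKM added, where 12.6% of all genes compared were counted as higher. At 1.5-fold 6 were counted there and 5 in WT, beside 25.0% and 21.6% of all genes compared. Of 90 recomputed log2 ratios of single subunits, 73 moved by less than their counting interval. The other 17 were infarct ratios. Under median-ratio or TMM scaling, the log2 ratio of Cybb was between 0.68 and 0.70 and that of Cyba between 1.01 and 1.03, so that Cyba lay close to the 2-fold line, as did Ncf1 in the libraries labelled Neil3-/-, at 1.02 and 1.04. The sign turned in 4 ratios, all near 0 and all in the difference of infarct ratios for Cybb or Cyba. Over all genes, those counted as higher in infarcted tissue numbered 1030 in the libraries labelled Neil3-/- and 777 in WT. These counts were 1578 and 1262 with 0.1 RPKM added, 516 and 447 under median-ratio scaling, 549 and 455 under TMM scaling, and 3146 and 2698 at 1.5-fold. Genes counted as lower numbered 762 and 450, against 1557 and 1196 at 1.5-fold and, in WT, 781 and 769 under the 2 scalings. Between genotypes 31 genes were counted as higher in each region, against 70 in each with 0.1 RPKM added, 188 in infarcted and 139 in non-infarcted tissue at 1.5-fold, and 18 and 16 at a filter of 5 RPKM. Those lower were 30 and 23, against 71 and 48, 193 and 75, and 14 and 9 under these settings. In the difference of infarct ratios 38 were higher and 29 lower, against 99 and 100, 142 and 197, and 19 and 9. Of the pathway list 10 and 8 were counted as higher, against 3 and 4 under median-ratio scaling and 5 and 4 under TMM scaling. At 1.5-fold 19 and 18 were, beside the 25.0% and 21.6% of all genes compared. The 1.5-fold line also counted 2 as lower in the libraries labelled Neil3-/-. Depth limits Nox4 and Ncf4 most, with 59 to 453 reads per library.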
